A study of Mus musculus with 4 samples.

Results

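Cytochrome c oxidase, complex IV of the respiratory chain, carries several nuclear-encoded subunits that exist as paralogous isoforms, and the levels of 10 such genes were followed in mouse oocytes. The genes form 5 pairs, each with a ubiquitous isoform and an isoform named for a tissue: Cox4i1 with Cox4i2, Cox6a1 with Cox6a2, Cox6b1 with Cox6b2, Cox7a2 with Cox7a1, and Cox8a with Cox8c. They were picked by symbol, 10 of the 23235 genes in the table, with their levels already known, so their values are given as descriptions and no test was run on them. There were 4 libraries, each from 10 pooled oocytes and each the single library of its group, on a C57B6 background. All mice carried the floxed alleles Dcaf13fl/fl. The control groups had no Cre, and the deletion groups also carried Gdf9-Cre, in which the promoter of an oocyte growth factor gene drives the recombinase in oocytes. Mice were about 14 days old for the growing oocytes. For the fully grown oocytes they were about 23 days old and had received 5 IU of PMSG, a gonadotropin that stimulates follicles, 48 h earlier, so stage, age and PMSG cannot be told apart. How many mice gave the oocytes of a library is not given in the sources used here.

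Complex IV takes electrons from cytochrome c, reduces oxygen to water and pumps protons across the inner mitochondrial membrane. Its catalytic core is encoded in mitochondrial DNA, and the nuclear subunits around it serve assembly, stability and regulation. Subunit 4 carries a site through which ATP inhibits the enzyme, and its second isoform, Cox4i2, is known from lung, from pericytes and from cells kept at low oxygen. Cox6a2 and Cox7a1 are the heart and skeletal muscle isoforms of their subunits, and Cox6b2 and Cox8c are known from testis. Subunit 6B sits on the side facing cytochrome c and touches both monomers of the dimeric enzyme. Oocytes depend on mitochondrial oxidation, mainly of pyruvate, while they grow.

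Levels are in FPKM, which divides the fragments of a gene by its length and by the library's mapped fragments. This puts the genes of a library on a common scale. How evenly transcripts of different length or sequence were captured was not tested. In the deposited table the symbols and the values run in different sort orders. The values were therefore read with the symbols in byte order (digits, capitals, lower case), which gave all 10 genes other values than the rows that bear their names. With the table read as it stands, Cox8a was listed at 0 in all 4 libraries and Cox4i1 lay between 10.6 and 24.3 FPKM. After re-pairing they lay between 792 and 1024 and between 1271 and 1614 FPKM. The 18 oocyte markers had a median of 4.82 FPKM as deposited and 1332 FPKM after re-pairing, and between 1069 and 1597 FPKM in single libraries, with H1foo the most abundant (mean 5118 FPKM). Of these markers Figla alone was past the size rule given below, lower over growth in deletion oocytes (-1.17). The re-pairing is an inference from the values, and everything below rests on it. Below, values listed for 4 libraries follow 1 order: growing control, then growing deletion, then fully grown oocytes in the same sequence of genotypes. The targeted gene Dcaf13 stood at 96.1, 38.9, 160.2 and 64.0 FPKM, lower in the deletion library at both stages. Depth is not given with FPKM. The worth of 1 fragment among low genes put the other libraries at 1.01 to 1.12 times the depth of the growing control library.

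The stretches ahead of the transcript starts of the Cox6b and Cox7a pairs are shown, since they set the pair with near-equal levels beside one with levels far apart. They are RefSeq sequences of build GRCm38.p6, trimmed to the bases that no annotated GENCODE exon covers. Capitals mark CCAAT boxes (CCAAT, or ATTGG on the other strand) and GC boxes (GGGCGG, or its complement).
Cox6b1, chr7:30626152-30626364, minus strand: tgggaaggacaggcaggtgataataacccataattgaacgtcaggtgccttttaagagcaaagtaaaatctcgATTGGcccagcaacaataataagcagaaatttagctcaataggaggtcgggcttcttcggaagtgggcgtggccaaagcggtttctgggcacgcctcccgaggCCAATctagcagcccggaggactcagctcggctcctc
Cox6b2, chr7:4753095-4753225, minus strand: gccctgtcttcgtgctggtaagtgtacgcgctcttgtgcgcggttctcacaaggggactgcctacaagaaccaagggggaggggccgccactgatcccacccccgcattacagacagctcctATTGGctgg
Cox7a2, chr9:79759879-79760103, minus strand: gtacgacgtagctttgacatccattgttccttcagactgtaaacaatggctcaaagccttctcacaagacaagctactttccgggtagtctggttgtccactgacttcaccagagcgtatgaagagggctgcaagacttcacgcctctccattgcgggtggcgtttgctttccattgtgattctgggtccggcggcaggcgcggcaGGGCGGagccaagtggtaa
Cox7a1, chr7:30183921-30184143, plus strand: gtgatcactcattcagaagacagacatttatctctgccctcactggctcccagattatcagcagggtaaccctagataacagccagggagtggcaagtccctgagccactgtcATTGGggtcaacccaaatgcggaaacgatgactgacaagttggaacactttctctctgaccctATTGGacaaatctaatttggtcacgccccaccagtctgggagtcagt

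The reference table held such a sequence for 6 of the 10 genes: the pairs of Cox6b and Cox7a, Cox6a1 and Cox8a. Over the 250 bases ahead of the start, Cox6a1 had 26 CpG, more than in 90.4% of the 32851 windows of the table, against a median of 6. The ubiquitous Cox6b1 and Cox7a2 had 14 CpG each, Cox8a had 11, and the tissue isoforms Cox6b2 and Cox7a1 had 8 and 4. Each of 7 motifs was searched on both strands. The NRF1 motif (GCGCA, any base, GCGC), that of a factor known to act on genes of respiration, was found in 3.74% of all windows and, of the 6, only in Cox6a1, with 2 matches. The ETS motif CCGGAAG (6.91% of windows) was found in Cox6a1 and Cox6b1. In Cox6b1 it lay at -28 to -22, counted in bases from the start. A GENCODE exon of Cox6b1 covers that part, so the match is not in the stretch shown. The CCAAT box (33.8%) was found in all but Cox7a2, and the GC box GGGCGG (32.7%) in Cox6a1, Cox6b2 and Cox7a2. None of the 6 windows held TATAAA (12.4% of windows), the YY1 motif AANATGGCG (1.12%) or the CRE TGACGTCA (1.55%). The CCAAT box of Cox6b2 lay at -9 to -5, counted in bases from the start, and those nearest the start in Cox6b1 and Cox7a1 lay at -74 to -70. In GENCODE, exons of the neighbouring gene Fam71e2 cover the far part of the Cox6b2 window, which also holds its GC box and its other CCAAT box. A match is only a run of letters, and the start used in oocytes was not measured.

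**Figure D1:**
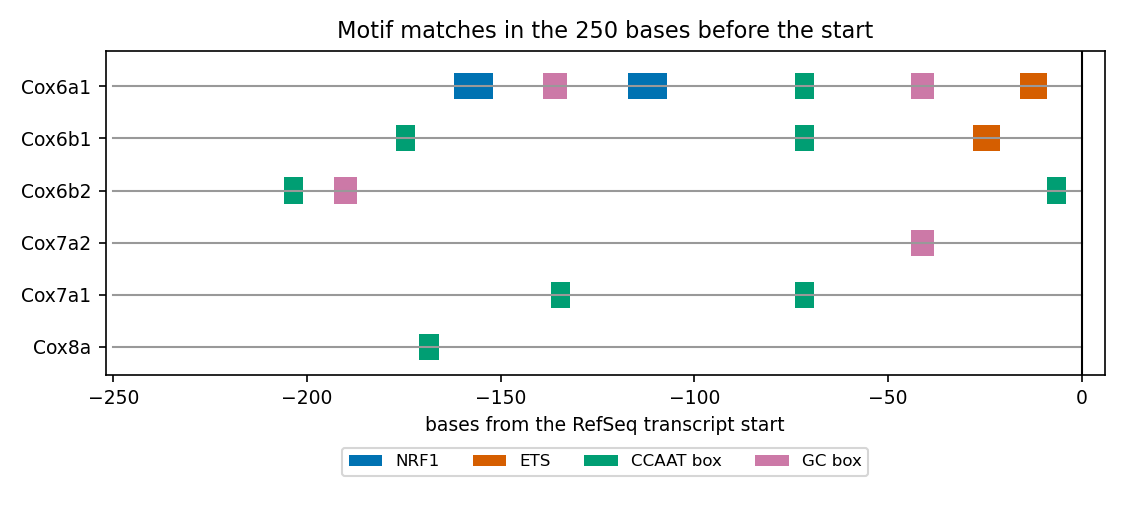
Motif matches in the 250 bases before the RefSeq start of the 6 genes with a reference window, by distance from the start in bases. Coloured blocks are matches on either strand to the NRF1, ETS, CCAAT and GC box motifs. The NRF1 matches lie in Cox6a1 alone.

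In all 4 libraries the ubiquitous isoforms were abundant, and of the tissue isoforms Cox6b2 alone was near their level. Cox4i1 came first, with a mean of 1413 FPKM over the libraries and a range of 1271 to 1614 that overlapped with no other gene of the 10. Then followed Cox8a (mean 915), Cox6a1 (750.2), Cox7a2 (611), Cox6b1 (548) and Cox6b2 (514), each with a range over the libraries that overlapped with that of the next. Below a gap came Cox6a2 (37.6), Cox4i2 (17.6), Cox8c (15.1) and Cox7a1 (6.14), whose neighbouring ranges overlapped as well. These ranges span genotypes and stages and are not an error of one group. A lower FPKM can stand for less RNA per oocyte or for fewer oocytes that hold it, and these cannot be told apart in pools of 10.

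**Figure D2:**
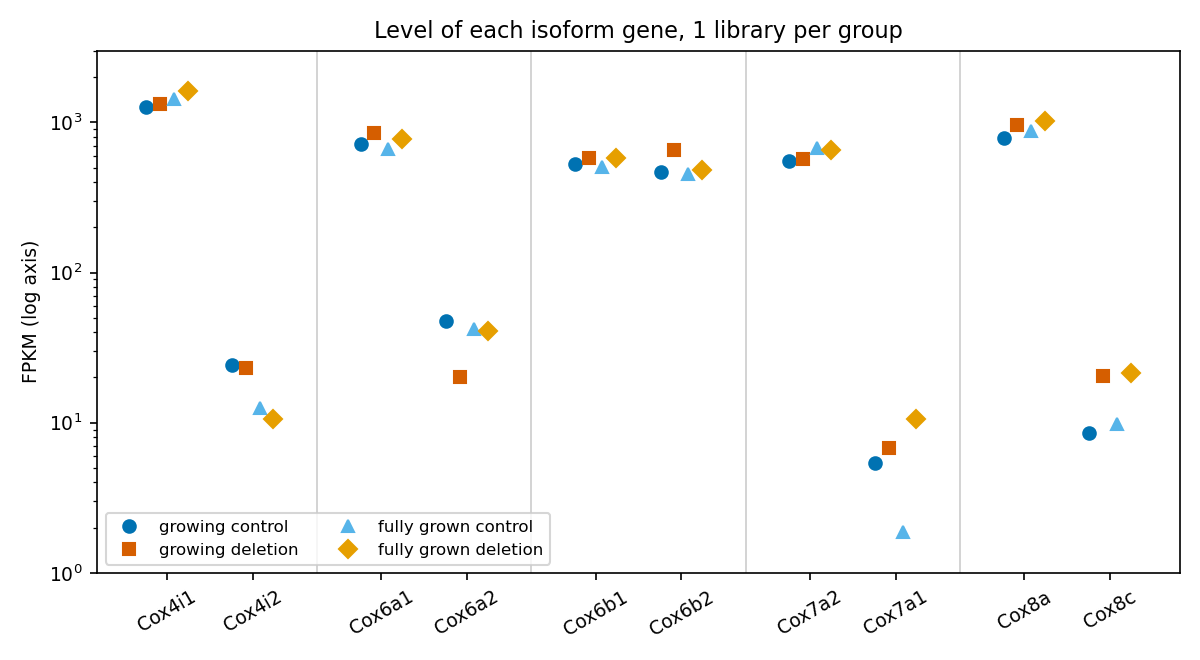
FPKM on a log axis for each gene, with the ubiquitous isoform on the left of each pair and 1 point per library. The points of Cox6b2 lie beside those of Cox6b1, while Cox4i2, Cox6a2, Cox7a1 and Cox8c lie below their partners, which had 15.2 to 359.8 times their FPKM.

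Cox6b1 (chromosome 7, minus strand, 31401993 to 31411170, mm9) stood at 527, 577, 506 and 580.5 FPKM. Cox6b2 (chromosome 7, minus strand, 4703397 to 4704504, mm9) stood at 468, 652, 455 and 480.2 FPKM. The isoform named for testis thus made up 47.0%, 53.0%, 47.3% and 45.3% of the summed FPKM of the pair. It exceeded the ubiquitous isoform in the growing deletion library alone. By level Cox6b2 ranked 262nd, 177th, 296th and 289th among all genes of the library, close to Cox6b1 at 223rd, 212th, 269th and 232nd. The transcripts compared share no identical run longer than 14 bases, and their longest alignment covered 88 bases at 77.3% identity. Fam71e2, on the same strand and, by the mm9 coordinates of the deposited table, 324 bases upstream, farther than in the GENCODE annotation of GRCm38 used for the sequences, was listed at 0 in all 4 libraries. Of 8 markers of male germ cells, 5 were under 1 FPKM in every library, among them Tnp1, Tnp2, Prm1 and Akap4, while Prm2 stood between 27.9 and 61.8 FPKM.

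Cox6a1 (chromosome 5, minus strand, 115795663 to 115798964, mm9), the form of subunit 6A found in most tissues, stood at 719.8, 848, 662 and 772 FPKM. Its muscle partner Cox6a2 (chromosome 7, minus strand, 135348949 to 135349880, mm9) stood at 47.5, 20.02, 42.2 and 40.6 FPKM. Its share of the pair was 6.19%, 2.31%, 6.001% and 4.99%. The growing deletion library was thus the low one, for the level and for the share. Cox6a2 overlaps Itgad on the opposite strand by 69 bases. Itgad was at 0.0936 FPKM in growing control and listed at 0 in the others, and its part in the Cox6a2 values was not tested.

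Cox4i1 (chromosome 8, plus strand, 123192190 to 123198109, mm9) stood at 1271, 1328, 1439 and 1614 FPKM, and its rank by level was between 39 and 50. Cox4i2 (chromosome 2, plus strand, 152579909 to 152590773, mm9), the form linked to low oxygen, stood at 24.3, 23.0, 12.5 and 10.6 FPKM. Its share of the pair was 1.88%, 1.70%, 0.859% and 0.652%. Both growing libraries were high and both fully grown libraries low. Of 10 pericyte and smooth muscle markers, 7 were under 1 FPKM in every library, and Rgs5 and Higd1b were listed at 0. The 3 highest were Cnn1 (mean 13.7 FPKM), Myh11 (9.41) and Ndufa4l2 (5.31). Ndufa4l2, at 6.41, 6.85, 3.72 and 4.27 FPKM, was likewise higher in both growing than in both fully grown libraries. Cnn1, at 15.6, 9.31, 14.1 and 15.7 FPKM, and Myh11, at 9.78, 6.95, 10.8 and 10.1, did not have this pattern. The part of Ndufa4l2, or of pericytes, in the Cox4i2 values was not tested.

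Cox7a2 (chromosome 9, minus strand, 79603048 to 79607660, mm9) stood at 552, 569.9, 671 and 652 FPKM, with both fully grown libraries above both growing ones. Cox7a1 (chromosome 7, plus strand, 30969190 to 30971049, mm9), the muscle form and the lowest of the 10, stood at 5.38, 6.77, 1.87 and 10.5 FPKM. Its share of the pair was 0.965%, 1.17%, 0.277% and 1.59%. Here the fully grown control library was the low one. Capns1, which lies 911 bases away on the opposite strand, was also lowest in that library, at 29.3, 27.0, 18.9 and 28.5 FPKM, and its part in the Cox7a1 values was not tested. At such levels few fragments stand behind a value, and with no counts their number is unknown.

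Cox8a (chromosome 19, minus strand, 7289648 to 7292106, mm9) stood at 792, 967, 879 and 1024 FPKM. Cox8c (chromosome 12, plus strand, 104137516 to 104138744, mm9), known from testis, stood at 8.60, 20.4, 9.85 and 21.4 FPKM. Its share was 1.07% and 1.11% in growing and fully grown control oocytes and 2.07% and 2.05% in growing and fully grown deletion oocytes. Both deletion libraries were high, at nearly the same level, and both control libraries low. The male germ cell markers summed to 31.3, 41.1, 43.3 and 65.4 FPKM, most of it Prm2. This sum too was higher in the deletion library at each stage. Of the 3 markers that reached 1 FPKM in a library, 2 were above control at each stage, Prm2 and Odf1 (1.86, 2.86, 1.83 and 2.99 FPKM). The other, Acrv1, was lower in deletion oocytes at each stage, at 0.385, 0.125, 1.5 and 0.467 FPKM. The part of male germ cell markers in the Cox8c values was not tested. The third form of this subunit, the muscle gene Cox8b, was listed at 0 in all 4 libraries.

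**Figure D3:**
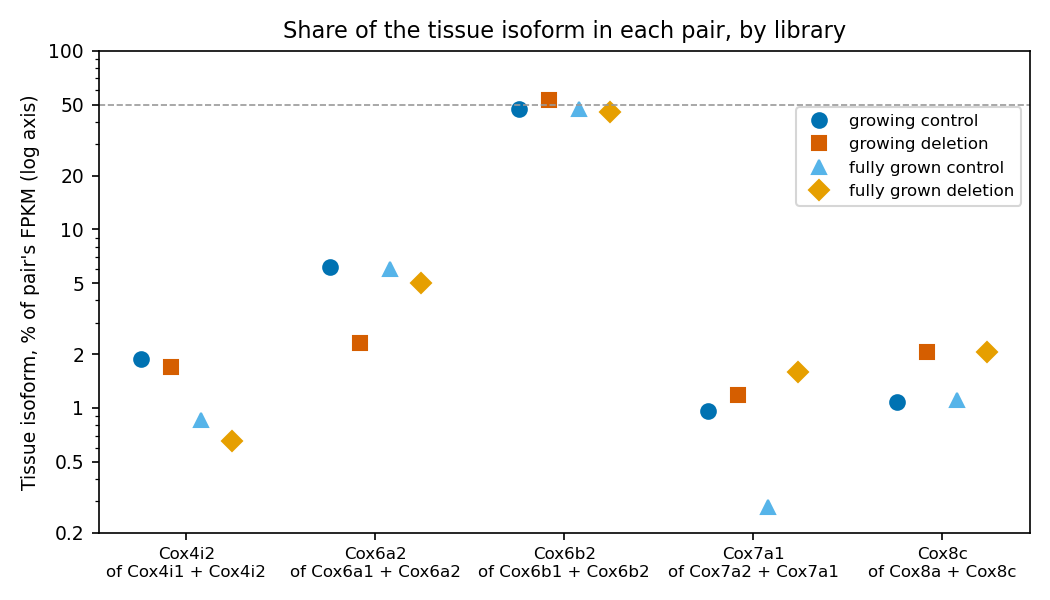
Tissue isoform as a percentage of the summed FPKM of its pair, on a log axis, with 1 point per library and a dashed line at 50%. Cox6b2 lies between 45.3% and 53.0%, and the other tissue isoforms lie between 0.277% and 6.19%.

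Summed over the 5 pairs, the tissue isoforms held 12.5%, 14.4%, 11.1% and 10.8% of FPKM. Without the Cox6b pair these shares were 2.51%, 1.85%, 1.79% and 2.005%, so Cox6b2 gave most of the sum. The ubiquitous isoforms varied little between libraries, with a highest over lowest FPKM of 1.15 (Cox6b1) to 1.29 (Cox8a). For the tissue isoforms this ratio was 1.43 for Cox6b2, 2.298 for Cox4i2, 2.37 for Cox6a2, 2.49 for Cox8c and 5.65 for Cox7a1. On FPKM + 1, the median ratio over the 8235 genes at 5 FPKM or more in a library was 1.48. Less abundant genes can differ more between libraries by counting alone, and its part in these ratios was not tested.

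Partner transcripts were checked for shared sequence that could mix their reads. The longest identical run between partners was 14 bases in the Cox4i and Cox6b pairs, 12 in the Cox6a and Cox7a pairs and 9 in the Cox8 pair. No other annotated GENCODE transcript matched a member over at least 50% of its length at 95% identity or more. The closest was a processed transcript of the locus AC148174.2, which matched Cox6a1 over 496 of 571 bases at 92.7% identity. How the authors counted reads with several matches is not given in the sources used here.

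Differences between 2 libraries are given as changes in log2(FPKM + 1), and the added 1 makes those of low genes too small. Here higher or lower by the size rule means that a gene reached 5 FPKM in at least 1 of the 2 libraries and changed by 1 or more on that scale. All 10 genes reached 5 FPKM in each comparison, Cox7a1 only through 1 of the 2 libraries in the comparison of fully grown oocytes and in growth of controls, where it therefore had to differ. The same holds for calls of Mb, Inha and Pet117 given below, each of which reached 5 FPKM in 1 of the libraries compared. The rule compares single libraries and carries no error. The deletion comparisons share no library with each other, while each growth comparison shares 1 library with each of them.

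Deletion oocytes were next set against control oocytes at each stage. The groups differ in Gdf9-Cre as well as in the deletion, so Cre and deletion cannot be told apart. In growing oocytes Cox8c was higher and Cox6a2 lower, in fully grown oocytes Cox7a1 and Cox8c were higher, and no ubiquitous isoform was past the rule at either stage. Cox8c had 2.37 times its control level in growing and 2.17 times in fully grown oocytes, changes of 1.16 and 1.05. Cox6a2 had a change of -1.21 in growing and of -0.057 in fully grown oocytes. Cox7a1 had a change of 0.28 in growing and of 2.01 in fully grown oocytes. The change of Cox6b2 was 0.48 in growing and 0.077 in fully grown oocytes. That of Cox4i2 was -0.081 and -0.22. Of the 10 genes 1 was higher and 1 lower in growing oocytes, where 2.62% of the 8010 genes at 5 FPKM were higher and 2.51% lower. In fully grown oocytes 2 were higher and none lower, beside 1.08% higher and 1.09% lower of 7413 genes. These members were chosen with those values known, so nothing is read from the counts.

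**Figure D4:**
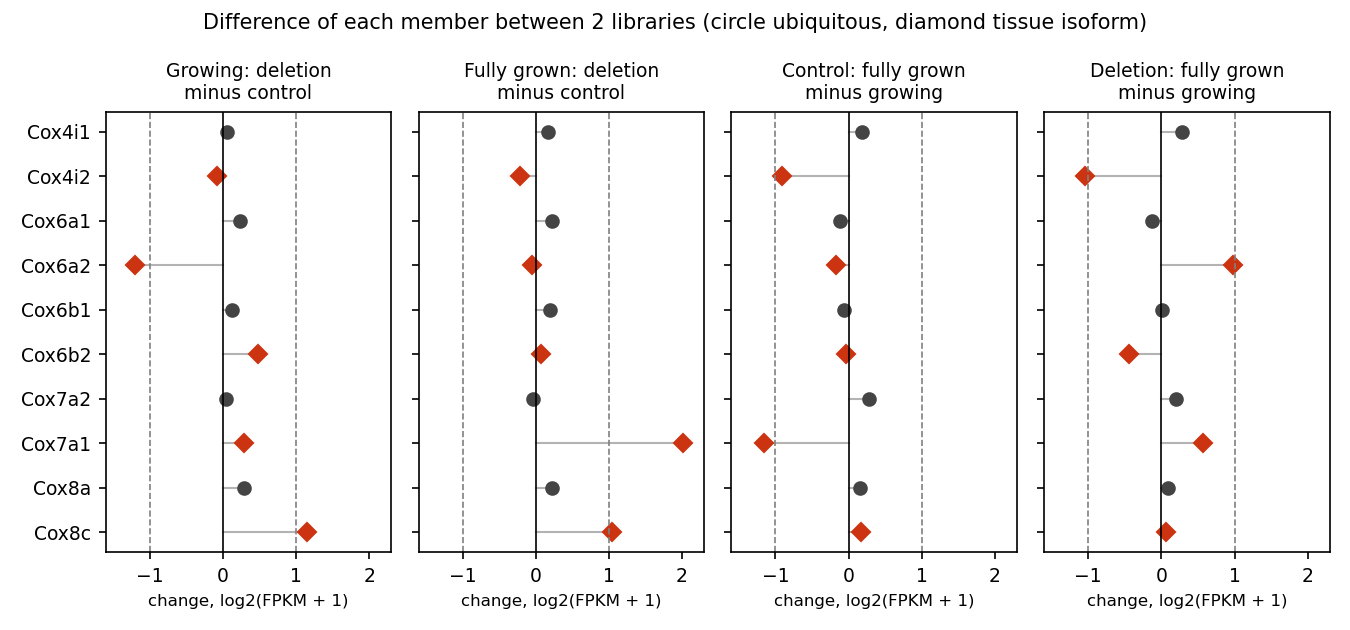
Change of each gene in log2(FPKM + 1) in the 4 comparisons of 2 libraries, with circles for ubiquitous and diamonds for tissue isoforms and dashed lines at -1 and 1. The ubiquitous isoforms lie between -0.14 and 0.29 in all 4 panels, and every point beyond a dashed line is a tissue isoform.

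The ubiquitous isoforms lay slightly above control. In growing oocytes 5 of 5 were above, with changes from 0.046 (Cox7a2) to 0.29 (Cox8a) and a median of 0.13, beside a median of 0.08 over all genes at 5 FPKM, of which 58.5% were above control. With libraries rescaled by their median ratio 3 of 5 were above, and 1 of 5 once the trend of the change with transcript GC content and length was removed, so the direction of this group depended on the scaling. In fully grown oocytes 4 of 5 were above, with a median of 0.20 beside 0.04 over all genes at 5 FPKM. Of those genes 54.98% were above control. Under both of these scalings 4 of 5 ubiquitous isoforms were above as well, and the share of all genes is not given for either. Of the tissue isoforms 3 of 5, namely Cox6b2, Cox7a1 and Cox8c, were above control at both stages and under both scalings.

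Across stages, 6 of the 10 genes stood higher in both deletion libraries than in both control libraries: Cox6a1, Cox6b1, Cox6b2, Cox7a1, Cox8a and Cox8c. Of the 8235 genes at 5 FPKM or more in a library, 21.1% had this pattern. Cox6a2 was lower in both deletion libraries than in both controls, as were 13.7% of genes, although its fully grown values of 40.6 and 42.2 FPKM lay close together. With median-ratio rescaling Cox8a left the first set, which then held 5 of the 10, beside 16.2% of genes, and the pattern of Cox6a2 was that of 17.9%.

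Other values moved with Cox6a2 in the growing deletion library. Of 12 striated muscle markers, Myoglobin (Mb) was lower there by the rule, at 1.73 FPKM against 7.87 in growing control, and the list summed to 42.5 FPKM there and to between 60.3 and 61.6 in the other libraries. Of that list 8 were under 1 FPKM in every library, among them Ckm, Acta1 and Myh7, and Actc1, Myh6, Ckmt2 and Tnnt2 were listed at 0. Tnni3 was the highest, with a mean of 39.8 FPKM, followed by Casq2 (8.14) and Mb (6.15). Of 12 granulosa and cumulus markers, the aromatase gene Cyp19a1 (7.75 against 17.7 FPKM) and the inhibin gene Inha (2.16 against 6.53) were lower there by the rule. Nr5a2, between them in mean level (4.56 FPKM), was not past it, at 4.88 against 5.87 FPKM (-0.22). This list summed to 17.8 FPKM in growing deletion and to between 28.0 and 35.4 in the others. The pericyte and smooth muscle markers summed lowest there too, at 23.2 FPKM against 28.6 to 31.9 in the others. Of these markers Ndufa4l2 was instead at its highest there, at 6.85 FPKM. In contrast, the blood and endothelial markers (16.6 against 14.9 FPKM) and the male germ cell markers (41.1 against 31.3) summed higher there than in growing control. Mb (1.36) and Cyp19a1 (1.03) were then higher over growth in deletion oocytes, where Cox6a2 changed by 0.98, and Inha was lower over growth in controls (-1.15). Of the granulosa and cumulus list 6 were under 1 FPKM in every library, including Amh and Foxl2. The part of these cells or of library quality in the Cox6a2 value was not tested.

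Change went with transcript GC content across genes (Spearman's rho 0.37 in growing and 0.39 in fully grown oocytes, over genes of the same libraries, which are not replicates). Cox8c has the lowest transcript GC content of the 10, 48.7%, and its changes were 1.11 and 1.20 after removal of the trend, and Cox6a2 (52.8% GC) had -1.32 in growing and Cox7a1 (55.3%) 2.001 in fully grown oocytes. Cox8c in fully grown oocytes lay just past the rule, at 1.01 after median-ratio rescaling.

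Fully grown were then set against growing oocytes, within each genotype. In controls Cox7a1 was lower, and in deletion oocytes Cox4i2 was lower. Cox4i2 had 0.512 times its growing level in controls and 0.461 times in deletion oocytes. These changes, -0.91 and -1.05, lie on either side of the rule and were not shown to differ. Cox7a1 had a change of -1.15 in controls and 0.57 in deletion oocytes, and Cox6a2 of -0.17 and 0.98. Cox8c had changes of 0.18 and 0.066, and Cox6b2 of -0.040 and -0.44. With the GC and length trend removed Cox8c turned to -0.37 and -0.30, Cox6b2 had -0.45 and -0.63, and all 5 tissue isoforms lay below the growing level in controls. Of the ubiquitous isoforms Cox4i1 (0.18 in controls, 0.28 in deletion), Cox7a2 (0.28 and 0.19) and Cox8a (0.15 and 0.083) lay above the growing level in both genotypes, although with that trend removed Cox8a no longer did so in controls. Cox6a1 (-0.12 and -0.14) lay below it in both.

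Of the 10 genes none was higher and 1 lower over growth in controls, where 1.11% of 7661 genes were higher and 3.07% lower. In deletion oocytes, too, none was higher and 1 lower, beside 2.7% higher and 8.75% lower of 7957 genes. Cox4i2 missed the rule in deletion oocytes with median-ratio rescaling (-0.98) and with that trend removed (-0.96). Cox6a2 passed it there as higher with median-ratio rescaling (1.06) and with a pseudocount of 0.1 (1.02). Both fully grown libraries stood above both growing ones for Cox4i1 and Cox7a2, a pattern of 21.5% of genes, and below them for Cox4i2, a pattern of 30.8% of genes. With median-ratio rescaling Cox8a joined the first set (26.1% of genes), and Cox4i2 kept its pattern (26.7%). FPKM is a share of each library, so a lower value does not give the amount of RNA per oocyte.

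Of the other nuclear subunits of complex IV none was past the size rule. Of 9 such genes, 7 were measured, which means 1 FPKM or more in a library, and Cox7b2 and Cox8b were listed at 0. This held for all 4 comparisons. The list summed to between 4416 FPKM in growing control and 4936 in growing deletion oocytes, with Cox7c the most abundant (mean 1156). In growing and fully grown oocytes 58.5% and 54.98% of all genes at 5 FPKM were above control. Of these subunits 7 of 7 and 4 of 7 were above, with medians of 0.16 and 0.03. With median-ratio rescaling these counts were 6 and 3 of 7, and with that trend removed 6 and 6 (share of all genes not given). Over growth their changes ran from -0.11 (Cox7c) to 0.39 (Cox5a) in controls and from -0.41 (Cox7c) to 0.36 in deletion oocytes, and with the trend removed the lowest were -0.62 and -0.75. The 3 mitochondrially encoded core subunits were sought by symbol, and none was found among the genes listed.

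Of 26 assembly factors, 25 were measured, and 11 of the 26 were matched through an older symbol. Cox17, a copper chaperone of the complex, was the most abundant, with a mean of 1050 FPKM. None was past the rule between growing deletion and growing control oocytes. Pet117 was lower in fully grown deletion oocytes, at 2.59 against 6.76 FPKM in fully grown control, a change of -1.11, and was higher over growth in controls (1.02). Coa3, a factor that stabilises newly made core subunits, was lower over growth in deletion oocytes, at 17.8 against 50.9 FPKM (-1.47). In controls it stood at 19.2 against 38.4 FPKM (-0.96), short of the rule.

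**Figure D5:**
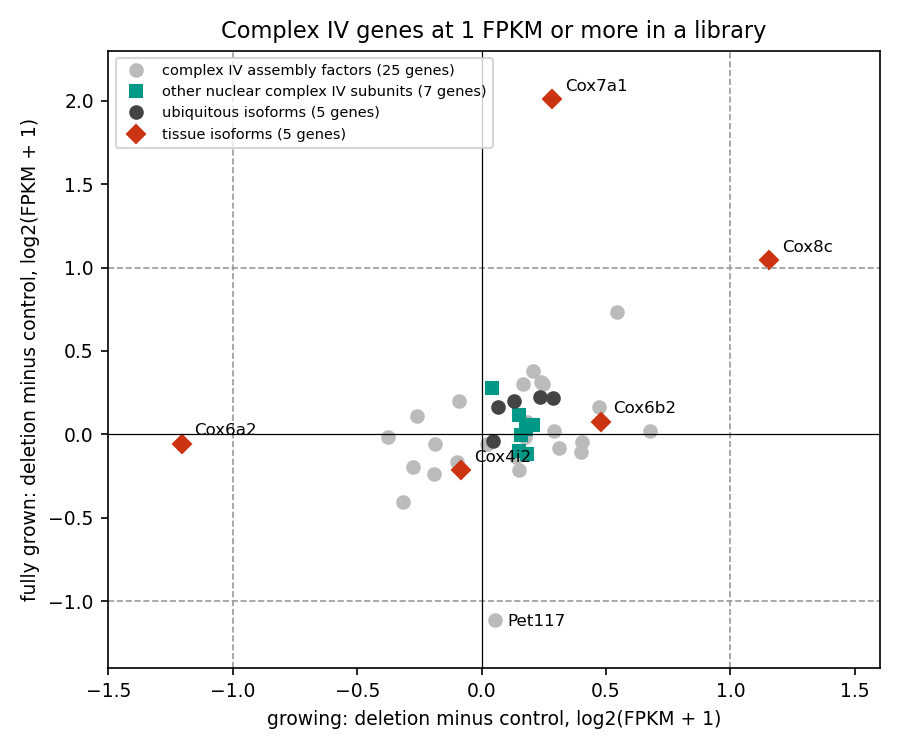
Change in log2(FPKM + 1) between deletion and control in growing (horizontal) and fully grown (vertical) oocytes for the complex IV genes at 1 FPKM or more in a library, 1 point per gene, with dashed lines at -1 and 1. Besides Pet117, the points beyond a dashed line are the tissue isoforms Cox6a2, Cox7a1 and Cox8c.

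For the 4 genes past the rule anywhere, the genes with the most similar course were sought among 7336 genes at 5 FPKM or more in a library, left after predicted genes, clone names, small RNA genes and pseudogenes were set aside by symbol, by the Euclidean distance of log2(FPKM + 1) centred on each gene's mean over the 4 libraries. With 4 libraries such likeness is easily met. Nearest to Cox8c were Rpl34 (distance 0.14), a ribosomal protein gene at 88.0, 195.6, 87.8 and 202.1 FPKM, Mad2l1bp (0.15) and Cbfa2t3 (0.22), and no other gene compared lay within 0.25. Nearest to Cox6a2 were Dab2 (0.14), Cd300c (0.14) and Prkg1 (0.16), with 11 genes within 0.25. Nearest to Cox4i2 were Ahcyl1 (0.05), Dppa5a (0.08) and Zfp281 (0.09), with 53 genes within 0.25. Cox7a1 had no gene within 0.25, and its nearest were Gli2 (0.45), C1qtnf5 (0.48) and Ctdnep1 (0.48).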

How the data were processed

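Polyadenylated RNA of 10 oocytes per library was made into cDNA by Smart-seq2 and into libraries with Tn5 transposase, per the labels' protocols. The authors deposited FPKM values per gene symbol, with mm9 coordinates. Cufflinks 2.2.1, Bowtie2 2.1.0, TopHat2 2.0.11 and CASAVA 1.8 are listed, without roles or settings, per the submitters' processing notes. No source used here states the strand handling, gene models or filters. The 4 per-sample tables were identical to the whole-series table. Its 23235 symbols were sorted in byte order and paired with the values in file order, so that 4113 rows kept their symbol. Starts were read as 0-based and printed 1-based, since 8468 of 20652 genes then had their RefSeq length.

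With 1 library per group no test was run. The design's size rule was applied to all genes. Alternatives were another pseudocount, other minimums, median-ratio rescaling, removal of a quadratic trend on GENCODE M21 transcript GC content and length, and the deposited pairing. The size rule and trend removal were tested on simulated data. The planted changes were larger than most of those called here, and no counting noise was added. The simulation therefore does not give the error of the rule in these libraries. Members, lists and tests were chosen with earlier results of these data known. Named genes were the members, Dcaf13, list genes past the size rule, the most abundant of each list (3 for markers of other cells) and the 3 nearest patterns. Other list genes named at low levels were chosen after their values were seen. Theca and stroma markers were under 1 FPKM in all libraries, led by Dcn (mean 0.665), Cyp11a1 (0.482) and Star (0.176). Of the 10 blood and endothelial markers 7 were under 1 FPKM in every library, led by Pecam1 (13.9), Cd68 (1.95) and Tie1 (0.382), and of male germ cell markers Odf1 (2.38) and Acrv1 (0.619) followed Prm2. Python 3.11.15, pandas 2.3.3 and BLAST 2.17.0 were used.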

Additional observations from a re-analysis of the deposited data

Results flagged for a closer look

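Some genes moved in opposite directions in the groups under the same contrast. With 1 library per group the differences were not tested, and they use the same 4 libraries. From growing to fully grown oocytes Cox7a1 changed by -1.15 in log2(FPKM + 1) in controls and by 0.57 in deletion oocytes. Cox6a2 changed by -0.17 in controls and by 0.98 in deletion oocytes, and Cox6b1 by -0.059 and 0.0075. Between deletion and control, Cox7a2 changed by 0.046 in growing and by -0.040 in fully grown oocytes. The opposition was lost for Cox7a2 with median-ratio rescaling (-0.038 and -0.079) and with the GC and length trend removed (-0.050 and -0.018), and for Cox6b1 likewise (0.0040 and 0.083, then -0.50 and -0.25). For Cox7a1 and Cox6a2 the signs stayed opposite under both.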

How the results depend on the processing

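No paired analysis was possible because each group held 1 library with no replicate number. Of the members past the size rule, Cox8c and Cox6a2 in growing and Cox8c in fully grown oocytes stayed past it under every alternative except the deposited pairing. At a minimum of 20 FPKM, though, Cox8c qualified at each stage through the deletion library alone, so there it had to differ. With a minimum of 20 FPKM, which drops Cox7a1, the members past the rule numbered 1 in fully grown deletion against control and 0 in growth of controls. In growth of deletion oocytes they numbered 2 with a pseudocount of 0.1 and 0 with the trend of GC content and length removed. The count stayed at 1 with median-ratio rescaling, but the member was Cox6a2 in place of Cox4i2. With the deposited pairing the counts were 1, 0, 0 and 1 in growing deletion, fully grown deletion, growth of controls and growth of deletion oocytes. The shares of the tissue isoforms, averaged over the libraries, were then 65.2% (Cox4i2), 93.5% (Cox6a2), 66.7% (Cox6b2), 67.7% (Cox7a1) and 100% (Cox8c, from 1 library at 0.0095 FPKM, with Cox8a and the other values of Cox8c at 0), against 1.27%, 4.87%, 48.2%, 1.002% and 1.57% as mainly read. Of the changes past the size rule under either pairing, those that turned were Cox6a1 (-1.21) and Cox6a2 (0.13) in growing deletion, Cox7a1 in fully grown deletion (-0.040) and in growth of controls (0.28), and Cox4i1 (-1.05) and Cox4i2 (0.56) in growth of deletion oocytes. Smaller changes turned as well, such as Cox4i1 (-0.91) and Cox4i2 (0.33) in growth of controls. Depth is unknown, and FPKM of the low members is imprecise.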

Other observations

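Germ cell isoforms of other energy enzymes were present beside Cox6b2, mostly at low levels. Slc25a31, a germ cell carrier that exchanges ADP and ATP, stood at 47.4, 64.4, 61.3 and 67.5 FPKM in the order of libraries used above, and the testis cytochrome c gene Cyct at 20.1, 18.4, 20.04 and 26.2. Their somatic partners Slc25a5 (mean 255 FPKM), Slc25a4 (94.0) and Cycs (43.4 to 62.2) were higher. Ldhc, the germ cell lactate dehydrogenase, was lower over growth in both genotypes, at 27.9 against 95.8 FPKM in controls and 20.8 against 121 in deletion oocytes, while of its somatic partners Ldhb had a mean of 5615 FPKM and Ldha, below Ldhc, one of 3.01. Pgk2 was listed at 0. Of the 6 genes 4 were measured, and Ldhc alone was past the size rule. Among the 8 somatic partners Gapdh was lower over growth in controls (-1.26).

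Of 13 regulators of complex IV and of mitochondrial genes 10 were measured, and none was past the size rule between deletion and control. Chchd2, which acts in mitochondria and on the promoter of Cox4i2, was the most abundant, with a mean of 471 FPKM. Tfam, the packaging and transcription factor of mitochondrial DNA, was lower over growth in controls (-1.19) and in deletion oocytes (-1.49). Yy1 was lower as well, with changes of -1.01 and -1.20. Both reached 5 FPKM in the growing libraries alone.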
